A study of Mus musculus with 16 samples.

Results

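Matrix proteases and their inhibitors were examined as 50 protein-coding genes of mouse pancreatic islets. They are the genes whose symbol starts with Mmp, Adam, Adamts, Adamtsl or Timp followed by a digit and that had at least 10 counts in at least 4 of 16 RNA sequencing libraries. The table held 83 protein-coding genes with such symbols among its 52636 genes. The 50 that met the rule were 13 of 22 Mmp, 15 of 33 Adam, 14 of 19 Adamts, 4 of 5 Adamtsl and all 4 Timp genes. The other 33 genes had at most 14 counts in any library, and 2 of them had 0 counts throughout. Just outside the rule were Adam1b, with at least 10 counts in 3 libraries, and Adam34, with 2 such libraries, and just inside it were Adamts12 and Adamts20 with 4 and Mmp25 with 6.

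Islets, the clusters of hormone-secreting cells in the pancreas, came from male mice of 12 weeks, whose strain is C57BL/6JRj in the sample labels and C57BL/6NRj in the study's methods. Groups of 500 islets pooled from several animals were kept in culture for 10 days, either untreated (control) or with 50 pg/ml of recombinant mouse IL-1β, with 0.2 mM sodium butyrate or with both (IL-1β + butyrate). Butyrate, which gut bacteria make by fermentation, inhibits histone deacetylases, and IL-1β is a cytokine of inflammation. Each condition had 4 libraries from independent experiments, numbered as replicates 1 to 4, and all conditions shared the medium with human serum and a change of medium during the culture. The design asks how IL-1β changes islet gene expression and how butyrate changes it with and without the cytokine.

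Libraries held 18635943 to 25955943 counts (median 22184715). The insulin gene Ins2 had a mean of 145137 CPM (counts scaled to a common library size) in control islets, the glucagon gene Gcg 21528 and the somatostatin gene Sst 1650, which are the defining hormones of beta, alpha and delta cells. Islets hold other cell types too, and in such mixed samples fewer cells of a type and less RNA per cell cannot be told apart. Of 10 macrophage markers all 10 were raised by IL-1β, with a median log2 fold change of 2.13. Their summed level ranged from 15.3 to 24.7 CPM in control libraries, 69.7 to 122 CPM with IL-1β, 32.6 to 70.3 CPM with IL-1β + butyrate and 12.8 to 21.6 CPM with butyrate, and none had a condition mean of 0. Of 9 duct markers tested 5 were raised by IL-1β, with a summed level of 731 to 789 CPM in control and 1032 to 1176 CPM with IL-1β, as were 2 of 8 endothelial and 2 of 6 acinar markers, while 2 of 10 fibroblast and stellate markers and 7 of 8 beta cell markers were lowered. IL-1β raised 1 beta cell marker. Of all genes tested, IL-1β raised 11.2% and lowered 6.59%. Sums of the endothelial, acinar and fibroblast markers overlapped between control and IL-1β. With IL-1β the sums were 12.2 to 18.6 CPM for endothelial and 29.6 to 36.9 CPM for acinar markers. The median log2 fold change with IL-1β was -0.13 for endothelial, 2.12 for acinar and -0.25 for fibroblast and stellate markers. Among the acinar genes the amylase gene Amy2b was at 0 in the IL-1β libraries. Summed endothelial markers were 14.3 to 16.1 CPM in control, 19.9 to 21.5 CPM with butyrate and 21.4 to 26.1 CPM with both agents. For 2 delta cell markers the sums were 1567 to 1873, 2284 to 2629 and 2493 to 3016 CPM. Sums of the alpha, beta, duct, acinar and fibroblast markers overlapped between control and butyrate. The part of these cell types in the differences of the protease genes was not tested.

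Matrix metalloproteinases (MMPs) are zinc-dependent enzymes that cut collagens, laminins and other matrix proteins, and the membrane-type members stay anchored at the cell surface. ADAMs are membrane proteins with a disintegrin domain, and those with an active protease domain release growth factors, cytokines and receptors from the cell surface. ADAMTS enzymes are secreted and cut proteoglycans, procollagens and other matrix proteins, while the ADAMTS-like proteins have no protease domain. The 4 tissue inhibitors of metalloproteinases, Timp1 to Timp4, block the active site of these enzymes. In islets the matrix proteins lie mainly in the basement membranes around the islet and its capillaries.

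In control islets most of these genes were at a low level. Per kilobase of exon, Adam9, a membrane sheddase, had the highest mean, 38.2 ± 1.59 CPM per kb (SD, n = 4). Adam10, the sheddase that cuts Notch and cadherins, followed with 12.3 ± 0.453 CPM per kb, and Adam22, a receptor for LGI proteins without protease activity, with 5.68 ± 0.145 CPM per kb. Timp2 was at 3.97 ± 0.0446 CPM per kb and Adam17, the sheddase of TNF and EGF receptor ligands, at 3.83 ± 0.186 CPM per kb, a pair that did not differ beyond their spread. Mmp24, a membrane-type enzyme known from neurons, was the highest MMP with 3.48 ± 0.104 CPM per kb, and Mmp15 was next with 2.01 ± 0.217 CPM per kb. The other 3 members above 1 CPM per kb were Adam32, Adam15 and Adamts6, so that 40 of 50 members lay under this level. In CPM without regard to length 24 of 50 were under 1.

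**Figure D1:**
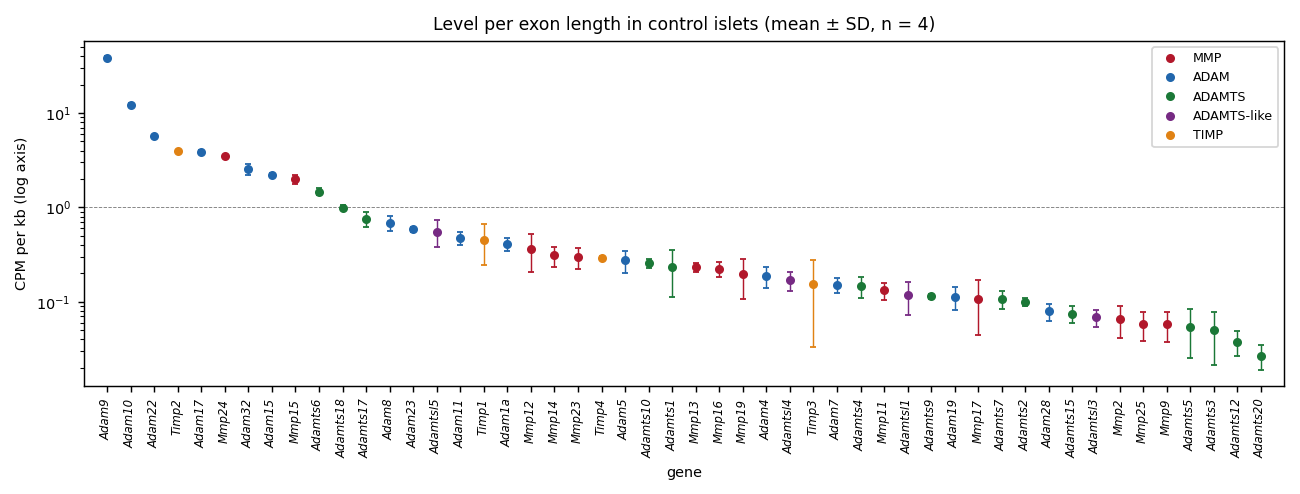
Mean level of the 50 member genes in control islets in CPM per kilobase of exon on a log axis, with the SD over 4 libraries as bars and the family as colour; the dashed line marks 1 CPM per kb. Adam9 stands at 38.2 CPM per kb, and 40 of the 50 genes lie under the dashed line.

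Differential expression was tested with edgeR over 18587 genes, and 48 of the 50 members were among them, since Adamts20 and Mmp25 fell under its count filter. A gene was called raised or lowered at a Benjamini-Hochberg adjusted p under 0.01. Over 5 comparisons 28 members were called at least once, 21 of them only as raised and 7 only as lowered. These were 58.3%, 43.8% and 14.6% of the 48 tested members, against 42.2%, 18.6% and 18.3% of all genes tested. A member that meets the rule only through a condition where it is high is more likely to differ. Adamts20, Adamts12 and Mmp25 had under 4 libraries with 10 counts once a single condition was set aside. For Adamts12 these libraries were 2 of control and 2 of IL-1β. Of these, Adamts12 was not called and the other pair was not tested. Each agent was in 2 conditions, however. With both butyrate conditions set aside, Mmp11 had under 4 libraries with 10 counts. With both IL-1β conditions set aside, the same held for Timp1, Mmp9 and Mmp2. These called members met the rule through the conditions where they were high, and they count in the raised shares above and below.

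IL-1β against control changed 16 members. The 12 raised genes were Mmp14, Mmp15, Mmp17, Adam10, Adam15, Adam17, Adam19, Adam22, Adam23, Adamtsl4, Timp1 and Timp4, and the 4 lowered ones were Adam9, Adam11, Adam32 and Adamts18. The raised share was 25.0% of the 48 members against 11.2% of all genes tested, and the lowered share was 8.33% against 6.59%. The median log2 fold change was 0.20 for the members and -0.03 for all genes. Summed macrophage markers, as given above, were 69.7 to 122 CPM in these IL-1β libraries against 15.3 to 24.7 CPM in control libraries, and their part in the raised genes was not tested.

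Butyrate against control changed 7 members. Mmp11, Mmp15, Adam15, Adamtsl4 and Adamtsl5 were raised, while Adam11 and Adamts17 were lowered. These were 10.4% raised against 8.53% of all genes tested and 4.17% lowered against 11.4%, with medians of 0.10 for the members and 0.01 for all genes.

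Butyrate added to IL-1β, compared with IL-1β alone, changed 12 members. The 9 raised genes were Mmp9, Mmp11, Mmp13, Mmp15, Mmp17, Adam15, Adamts4, Adamtsl4 and Adamtsl5, and the 3 lowered ones were Adam5, Adam32 and Adamts17. Raised members made up 18.8% against a background of 8.41%, and lowered members 6.25% against 11.1%. Members had a median log2 fold change of 0.16 and all genes one of 0.01.

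IL-1β + butyrate against control gave the most calls, 20 raised and 5 lowered. Raised were 8 MMP genes (Mmp2, Mmp9, Mmp11, Mmp12, Mmp13, Mmp14, Mmp15 and Mmp17), 6 ADAM genes, Adamts4, both Adamtsl4 and Adamtsl5 and 3 TIMP genes, and lowered were Adam9, Adam11, Adam32, Adamts17 and Adamts18. The shares were 41.7% raised against a background of 15.8% and 10.4% lowered against 14.8%. IL-1β + butyrate against butyrate alone gave 16 raised members and the lowered genes Adam9, Adam32 and Adam1a, or 33.3% against 9.92% and 6.25% against 4.86%. Comparisons that use the same libraries are not independent, and the lists above are therefore given side by side without a test of their overlap.

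**Figure D2:**
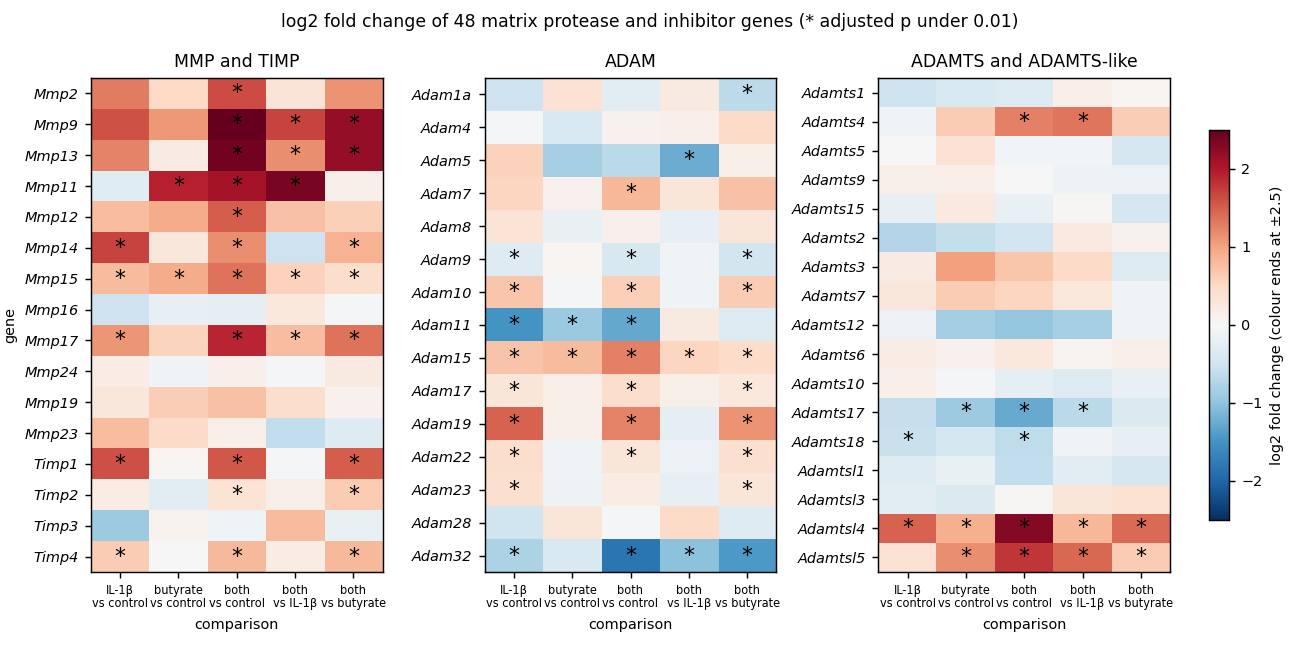
Log2 fold change of the 48 tested members (rows, by family) in 5 comparisons (columns), with red for higher and blue for lower in the first-named condition and an asterisk where the edgeR adjusted p was under 0.01. MMP genes carry only raised calls, 8 of them in the comparison of both agents with control, whereas the ADAM genes hold raised and lowered calls.

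Among the 6 membrane-type MMPs, Mmp14, Mmp15 and Mmp17 were raised by IL-1β, Mmp16 and Mmp24 were not called in any comparison, and Mmp25 was not tested. Mmp14, also named MT1-MMP, cuts fibrillar collagen and activates the gelatinase Mmp2. Its level was 1.49, 1.5, 2.01 and 2.4 CPM in the 4 control libraries and 5.48, 5.11, 6.12 and 7 CPM with IL-1β. It was 2.51, 2.53, 1.93 and 2.06 CPM with butyrate and 3.25, 3.1, 5.21 and 5.1 CPM with IL-1β + butyrate. All libraries with IL-1β were above all those without it, 3.21-fold in the comparison with control (log2 fold change 1.68 ± 0.18 (SE), adjusted p = 5.6e-08). With butyrate added to IL-1β the difference from IL-1β alone was -0.52 ± 0.16 (adjusted p = 0.016), which was not called, and the ranges overlapped. It remained 2.24-fold above control (adjusted p = 1.6e-05).

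Mmp15 (MT2-MMP) was raised in all 5 comparisons. Control libraries had 9.75, 9.96, 11.7 and 12 CPM and butyrate libraries 19.9, 19.6, 20.8 and 21.9 CPM. With IL-1β the values were 16.9, 19.2, 18.6 and 20.1 CPM, and with both agents 28.1, 25.4, 28.4 and 29.8 CPM. The 2 single agents gave neighbouring levels that overlapped with each other, and the combination lay above every other library. The log2 fold change was 0.79 ± 0.08 for IL-1β (adjusted p = 6e-09), 0.92 ± 0.08 for butyrate (adjusted p = 7.2e-10) and 1.36 ± 0.07 for both against control (adjusted p = 2.9e-14).

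Mmp17 (MT4-MMP), which is held at the membrane by a lipid anchor, was low in every condition. It had 0.28, 0.625, 0.669 and 1.28 CPM in control, 1.34, 1.8, 1.71 and 1.44 CPM with IL-1β, 1.16, 1.24, 0.679 and 1.12 CPM with butyrate and 2.64, 2.93, 2.54 and 2.7 CPM with both. The combination did not overlap with any other condition and was 3.72-fold above control (log2 fold change 1.90 ± 0.25, adjusted p = 6.5e-07). The rise with IL-1β alone (1.11 ± 0.27, adjusted p = 0.0025) was not called without control replicate 1 (0.86, adjusted p = 0.011), without control replicate 2 (1.05, adjusted p = 0.011) or when those 2 conditions were fitted alone (1.12, adjusted p = 0.016). The difference between both agents and IL-1β (0.78 ± 0.22, adjusted p = 0.0089) lost its call in 13 of 24 alternatives, and leaving out any library of these 2 conditions gave an adjusted p from 0.011 to 0.031.

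Of the 7 secreted and other MMPs, butyrate raised 1 without IL-1β and 3 with it, and both agents together raised 5 against control. The raised shares of all genes tested were 8.53%, 8.41% and 15.8% in the same order. Mmp11 (stromelysin-3), which is activated inside the cell by furin, had 0.467, 0.292, 0.334 and 0.385 CPM in control libraries and 0.259, 0.195, 0.207 and 0.469 CPM with IL-1β. Levels were 1.66, 1.11, 1.67 and 1.33 CPM with butyrate and 1.62, 1.19, 1.84 and 1.64 CPM with IL-1β + butyrate, so that all 8 libraries with butyrate lay above all 8 without it. The rise was 3.85-fold without IL-1β (log2 fold change 1.95 ± 0.28, adjusted p = 5.2e-06) and 5.22-fold with it (2.38 ± 0.29, adjusted p = 4e-07). The opposite-strand neighbour Chchd10 overlaps 5.58% of the Mmp11 exons, and its mean was 16.1 CPM in control, 13.5 CPM with IL-1β, 20.5 CPM with butyrate and 18.3 CPM with both. The strand setting of the counting is not stated, so the share of Mmp11 counts that came from Chchd10 was not tested.

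The gelatinase Mmp9, which cuts denatured collagen and type IV collagen of basement membranes, had the largest fold change of any member over the 5 comparisons. Libraries of control islets had 0.233, 0.167, 0.287 and 0.128 CPM, or 3 to 6 counts, and those with IL-1β had 0.414, 0.779, 0.207 and 0.974 CPM. Butyrate alone gave 0.653, 0.266, 0.157 and 0.645 CPM and IL-1β + butyrate 1.14, 1.74, 2.58 and 2.65 CPM, or 28 to 59 counts. All 4 libraries with both agents were above the other 12. The combination was 9.77-fold above control (3.29 ± 0.43 on the log2 scale, adjusted p = 1.3e-06) and 3.22-fold above IL-1β (adjusted p = 0.00078). Neither agent alone gave a call, with 1.60 ± 0.52 for IL-1β (adjusted p = 0.024) and 1.09 ± 0.56 for butyrate (adjusted p = 0.16). Mmp9 had an average log2 CPM below 0, so these folds rest on few reads.

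Mmp2, the other gelatinase, had 3 to 7 counts in control libraries and 9 to 24 with both agents. Its level was 0.125 to 0.3 CPM in control, 0.207 to 0.73 CPM with IL-1β, 0.0888 to 0.653 CPM with butyrate and 0.365 to 1.05 CPM with both. Only the comparison of both agents with control was called (1.63 ± 0.48, adjusted p = 0.0078). That call was lost in 8 of the 23 alternatives that tested the gene, for example without replicate 3 (adjusted p = 0.042) or replicate 4 (0.031) of the combination and without any of the 4 control libraries (0.011 to 0.034). It was also lost without IL-1β replicate 3 (adjusted p = 0.011) and without butyrate replicate 4 (adjusted p = 0.010).

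Mmp13, a collagenase, and Mmp12, the elastase of macrophages, are neighbours on chromosome 9. They lie at the start of a stretch of 9 Mmp genes from 7272514 to 7699585 (GRCm38) in which the other 7 were under the count rule. Mmp13 had 0.56, 0.667, 0.573 and 0.685 CPM in control and 0.854, 0.977, 0.523 and 0.516 CPM with butyrate. With IL-1β it had 2.53, 1.7, 0.674 and 1.08 CPM and with both agents 2.19, 5.05, 2.58 and 3.52 CPM. The combination was above all control and butyrate libraries, 5.30-fold above control (2.41 ± 0.34, adjusted p = 6.9e-06), whereas the rise with IL-1β alone (1.24 ± 0.38, adjusted p = 0.019) was not called. The difference between both agents and IL-1β (1.17 ± 0.30, adjusted p = 0.0049) was called although the ranges overlapped. It was not called without IL-1β replicate 2 (adjusted p = 0.012), 3 (0.014) or 4 (0.024), without replicate 2 (0.024) or 4 (0.014) of the combination, or with these 2 conditions alone (0.039).

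Mmp12 varied more between libraries. Control had 1.03, 2.92, 2.87 and 3.81 CPM, IL-1β 2.38, 7.98, 3.63 and 4.29 CPM, butyrate 5.12, 5.2, 5.23 and 4.86 CPM and both agents 4.99, 7.17, 10.4 and 8.19 CPM. The 4 butyrate libraries lay close together above all control libraries, yet the difference was not called (0.93 ± 0.39, adjusted p = 0.096). The comparison of both agents with control was called (1.52 ± 0.37, adjusted p = 0.0048), with adjusted p between 0.011 and 0.017 in the 7 alternatives that lost it. Of these, 5 left out a library, namely control replicate 1 (1.26, adjusted p = 0.011), 2 or 3 (both 0.013) or replicate 3 (0.017) or 4 (0.013) of the combination. Summed macrophage markers ranged from 69.7 to 122 CPM with IL-1β and from 32.6 to 70.3 CPM with both agents. The means of Mmp9, Mmp12 and Mmp13 were highest with both, and the part of macrophages in these levels was not tested.

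Among 35 RefSeq promoter windows of 31 members (each 300 bases around a start, GRCm38.p6), 3 held the 7-base AP-1 motif TGAGTCA or its reverse complement TGACTCA, compared with 5.2% of 32851 promoters. The other members, among them Mmp2, Mmp9 and Mmp17, had no window and were not searched. The 3 windows with the motif belong to Mmp13, Mmp12 and Adam19, and the 160 bases before each start are shown. IL-1β + butyrate against control raised 20 of 48 tested members, against 15.8% of all genes tested. The raised members include these 3 genes, members whose windows held no match, such as Adam10, Adam15 and Mmp14, and members not searched. With IL-1β alone only Adam19 of the 3 was called raised (adjusted p = 0.18 for Mmp12 and 0.019 for Mmp13). Neither the share of windows with the motif nor a link between the motif and the rise was tested. All 3 stretches are on the plus strand, and capitals mark the motif. For Mmp13 the stretch is chr9:7272354-7272513 and the motif lies at bases -35 to -29 relative to the start. For Mmp12 it is chr9:7347214-7347373, the window of 1 of 2 starts, with the motif at -44 to -38. For Adam19 it is chr11:46055824-46055983, the window of 1 of 3 starts, with the motif at -131 to -125. A match is a description of the letters and not a shown binding site.
Mmp13: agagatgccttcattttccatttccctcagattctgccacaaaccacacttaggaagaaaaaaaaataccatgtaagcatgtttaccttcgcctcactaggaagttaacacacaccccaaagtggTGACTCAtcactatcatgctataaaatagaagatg
Mmp12: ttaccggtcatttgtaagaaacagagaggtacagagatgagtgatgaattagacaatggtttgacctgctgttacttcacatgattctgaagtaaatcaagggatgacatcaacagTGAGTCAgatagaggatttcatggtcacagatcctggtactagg
Adam19: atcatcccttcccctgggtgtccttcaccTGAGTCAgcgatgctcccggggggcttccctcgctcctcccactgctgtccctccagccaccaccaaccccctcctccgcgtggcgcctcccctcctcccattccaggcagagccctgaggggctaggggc
A loose kappaB core (GGG, any 5 bases, then CC, on either strand) was in 27 of the 35 windows, against 50.8% of all promoters.

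**Figure D3:**
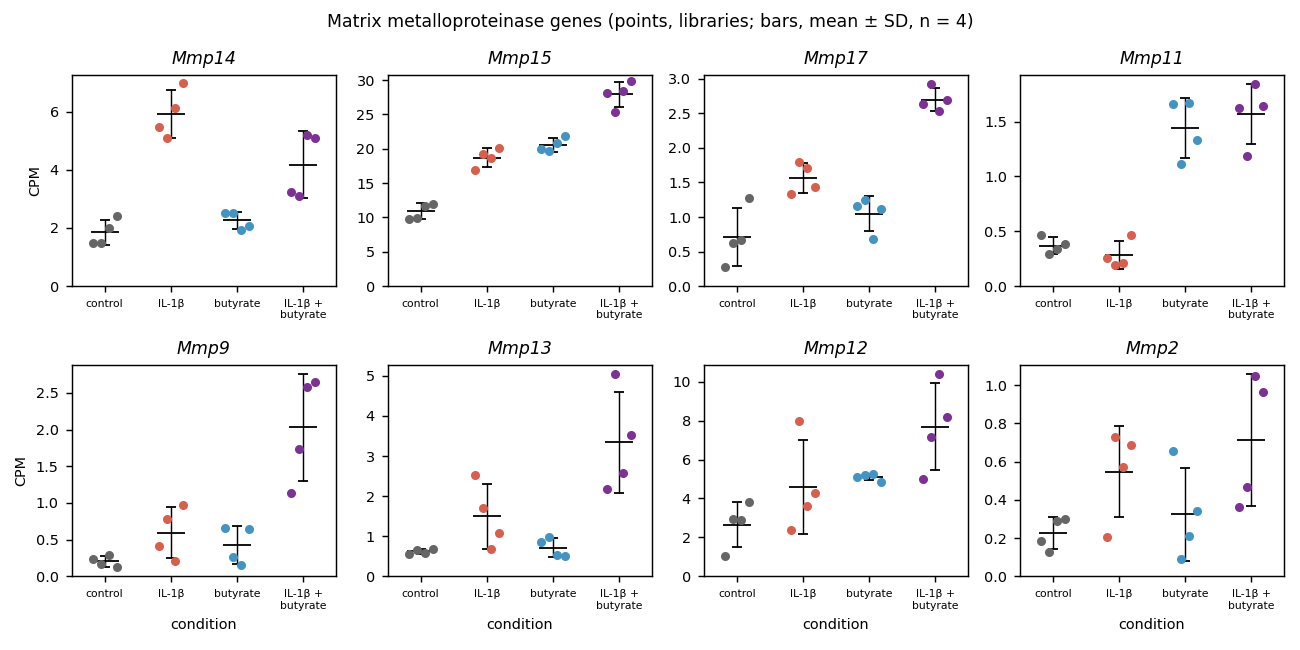
CPM of 8 MMP genes by condition, with a point for each library and the mean ± SD (n = 4) in black; every axis starts at 0. Mmp14 is high in the 8 libraries with IL-1β, Mmp11 in the 8 libraries with butyrate, and Mmp9 and Mmp17 are highest in the 4 libraries with both.

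Of the 15 ADAM genes, IL-1β raised 6 and lowered 3, butyrate raised 1 and lowered 1, and butyrate added to IL-1β raised 1 and lowered 2. Over all genes tested, IL-1β raised 11.2% and lowered 6.59% and butyrate raised 8.53% and lowered 11.4%. Butyrate added to IL-1β raised 8.41% and lowered 11.1% of all genes. The sheddase Adam10 had 63, 60, 61.1 and 57.7 CPM in control and 60.9, 61.7, 56.1 and 55.3 CPM with butyrate. It reached 101, 92.8, 96.3 and 98.6 CPM with IL-1β and 86.7, 99.9, 85.2 and 91.1 CPM with both agents. All 8 libraries with the cytokine lay above all 8 without, by 0.69 ± 0.05 on the log2 scale against control (adjusted p = 5.1e-11), and butyrate made no called difference with IL-1β (-0.10 ± 0.05, adjusted p = 0.15). Adam17 moved less, from a mean of 27.4 ± 1.33 CPM (SD, n = 4) in control to 33.6 ± 1.61 CPM with IL-1β and 37 ± 1.45 CPM with both. These were log2 fold changes of 0.29 ± 0.06 (adjusted p = 0.00015) and 0.44 ± 0.05 (adjusted p = 2.3e-07). Of its exons 4.35% overlap the opposite-strand gene Iah1, which was also raised by IL-1β (0.71 on the log2 scale).

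Adam9, the most abundant member, was lowered by IL-1β. It went from 157 ± 6.55 CPM in control to 127 ± 11 CPM with IL-1β and 120 ± 11.2 CPM with both, while butyrate libraries had 164 ± 2.63 CPM. The fall was 1.24-fold with IL-1β (-0.31 ± 0.06, adjusted p = 0.00018) and 1.37-fold for both agents against butyrate (-0.45 ± 0.06, adjusted p = 1.4e-06). The 3 most abundant sheddases thus did not move one way, with Adam10 and Adam17 raised and Adam9 lowered.

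Adam15, which binds integrins, was raised by each agent. Control libraries had 13.3, 12.9, 14.1 and 14.3 CPM, IL-1β libraries 20, 23.1, 22.7 and 23.6 CPM, butyrate libraries 23.5, 22.4, 24.5 and 24.6 CPM and libraries with both 29.4, 33, 34.3 and 33.8 CPM. Every library of each single agent was above control, and all 4 with both were above the rest. The log2 fold changes were 0.71 ± 0.07 for IL-1β (adjusted p = 3.1e-09), 0.80 ± 0.07 for butyrate (adjusted p = 8.3e-10) and 1.25 ± 0.07 for both (adjusted p = 1e-14). An opposite-strand gene, 4731419I09Rik, overlaps 20.6% of its exons and had a mean of at most 0.299 CPM in any condition.

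Adam19, a sheddase of neuregulins, was at 0.7, 0.625, 0.764 and 1.11 CPM in control and 0.804, 0.888, 0.888 and 0.903 CPM with butyrate. With IL-1β it was at 2.33, 2.09, 1.97 and 2.56 CPM and with both at 1.91, 1.44, 1.53 and 2.79 CPM. The 8 libraries with IL-1β were all above the 8 without it, 2.79-fold in the comparison with control (1.48 ± 0.23, adjusted p = 1e-05), and butyrate added to IL-1β gave -0.24 ± 0.20 (adjusted p = 0.40).

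Adam11, Adam22 and Adam23 encode related surface proteins without protease activity that are best known from neurons, where Adam22 and Adam23 bind LGI proteins. They went different ways. Adam22 rose with IL-1β from 81.5 ± 2.08 to 111 ± 9.26 CPM (0.44 ± 0.05, adjusted p = 9.8e-08) and Adam23 from 10.5 ± 0.654 to 13.9 ± 0.668 CPM (0.40 ± 0.07, adjusted p = 0.00015). In contrast, Adam11 fell, with 2.61, 2.13, 3.15 and 2.83 CPM in control and 0.724, 1.36, 0.881 and 0.83 CPM with IL-1β. It had 1.31, 1.2, 1.31 and 1.76 CPM with butyrate and 0.934, 0.976, 1.31 and 1.2 CPM with both, so that all control libraries were above all others. The fall was 2.81-fold with IL-1β (-1.49 ± 0.21, adjusted p = 2.7e-06) and 1.91-fold with butyrate (-0.93 ± 0.20, adjusted p = 0.00059), and adding butyrate to IL-1β gave 0.22 ± 0.23 (adjusted p = 0.52). The rise of Adam23 in both agents against butyrate (0.31 ± 0.08, adjusted p = 0.0033) lost its call without replicate 3 (adjusted p = 0.010) or 4 (0.025) of the combination, without butyrate replicate 1 (0.017) and with upper-quartile scaling (0.012).

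Several ADAM genes known mainly from testis and epididymis were also measured. Adam32, which neighbours Adam5 and Adam9 on chromosome 8, had the highest level of these, with 8.87, 8.21, 7.12 and 6.46 CPM in control. It had 5.07, 5.16, 4.61 and 3.14 CPM with IL-1β, 6.48, 6.62, 5.8 and 4.73 CPM with butyrate and 2.4, 2.33, 2.45 and 1.44 CPM with both agents. The combination lay under every other library and was 3.52-fold below control (-1.82 ± 0.17, adjusted p = 2.8e-09). IL-1β alone gave -0.79 ± 0.15 (adjusted p = 0.00025), butyrate added to it -1.03 ± 0.18 (adjusted p = 9.4e-05) and butyrate alone -0.38 ± 0.15 (adjusted p = 0.053), the last not called. Without replicate 4 of the combination, which stood at 1.44 CPM apart from the other 3, the gene kept all 4 calls.

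Adam5 was at 0.672 to 1.71 CPM with IL-1β and 0.438 to 0.626 CPM with both agents, and was lowered in that comparison only (-1.25 ± 0.30, adjusted p = 0.0023, or 0.011 without IL-1β replicate 3). Adam7 ranged from 0.526 to 0.77 CPM in control to 0.893 to 1.36 CPM with both (0.83 ± 0.24, adjusted p = 0.0067). This call was lost in 7 of 24 alternatives, including DESeq2 (0.017), no filter on low counts (0.026), without control replicate 2 (0.024) or 3 (0.027) and without replicate 2 (0.012), 3 (0.029) or 4 (0.025) of the combination. Adam1a had 3.78, 3.13, 2.63 and 2.78 CPM in control, 2.74, 2, 1.97 and 1.95 CPM with IL-1β, 4.62, 3.78, 3.61 and 3.83 CPM with butyrate and 2.6, 2.67, 2.45 and 2.36 CPM with both. Only the last 2 conditions differed beyond the threshold (-0.65 ± 0.15, adjusted p = 0.0014), and their libraries did not overlap. Genes on the same strand share 63.7% of the Adam1a exons, so its level is uncertain.

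Of the 14 ADAMTS genes, 3 were called and 10 tested genes were not, while 42.2% of all genes tested were called in at least 1 comparison. Among those not called, Adamts2, Adamts3, Adamts5, Adamts7, Adamts12 and Adamts15 had a mean log2 CPM below 0. Their SE was 0.25 to 0.42 for IL-1β against control, so that modest differences could go uncalled. Adamts4, an aggrecanase, had 0.7, 0.917, 0.478 and 0.728 CPM in control and 0.569, 0.633, 0.985 and 0.541 CPM with IL-1β. Butyrate libraries had 1.61, 0.888, 1.1 and 0.86 CPM and libraries with both agents 1.75, 1.49, 1.84 and 1.73 CPM. The combination lay above all control and IL-1β libraries, 2.52-fold above IL-1β (1.33 ± 0.25, adjusted p = 0.00016), but overlapped with butyrate alone, whose own difference from control was 0.63 ± 0.26 (adjusted p = 0.074).

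Adamts17, which is linked to fibrillin and eye and growth disorders, was lowered by butyrate with and without IL-1β. It had 4.85, 5.38, 6.16 and 7.19 CPM in control, 3.15, 4.28, 3.58 and 4.58 CPM with IL-1β, 2.46, 2.75, 3.97 and 3.48 CPM with butyrate and 2.07, 1.74, 2.98 and 3.13 CPM with both. All butyrate libraries were below all control libraries, 1.86-fold on average (-0.90 ± 0.17, adjusted p = 0.00026). The IL-1β libraries too were all below control (-0.58 ± 0.17, adjusted p = 0.010), just short of a call, and the interaction was 0.22 ± 0.26 (adjusted p = 0.95). With IL-1β the fall by butyrate was -0.68 ± 0.19 (adjusted p = 0.0073), and 7 of 24 alternatives did not call it. They left out IL-1β replicate 2 (adjusted p = 0.022) or 4 (0.030) or replicate 1 (0.027) or 2 (0.031) of the combination, or used upper-quartile scaling (0.018), library size alone (0.015) or these 2 conditions alone (0.013). Adamts18 fell with IL-1β from 10.1 ± 0.553 to 6.85 ± 1.98 CPM (-0.56 ± 0.13, adjusted p = 0.0019, or 0.011 without IL-1β replicate 3 and 0.013 with these 2 conditions alone), and the combination was at 6.49 ± 0.43 CPM.

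Both ADAMTS-like genes that changed were raised by butyrate. Adamtsl4, which binds fibrillin microfibrils, had 0.56, 0.625, 0.717 and 0.942 CPM in control and 1.45, 2, 2.23 and 2.24 CPM with IL-1β. It had 1.05, 1.29, 1.41 and 1.51 CPM with butyrate and 2.96, 3.56, 3.72 and 3.9 CPM with both. Control libraries lay under all others and the combination above all others, 4.92-fold above control (2.30 ± 0.20, adjusted p = 2.8e-10). IL-1β alone gave 1.47 ± 0.21 (adjusted p = 4.2e-06) and butyrate alone 0.88 ± 0.23 (adjusted p = 0.0038). The butyrate call was lost without control replicate 1 (adjusted p = 0.017), 2 (0.016) or 3 (0.010) and without butyrate replicate 3 (0.011) or 4 (0.017).

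Adamtsl5 had 1.49, 2.63, 3.39 and 3 CPM in control, 3.21, 3.31, 4.61 and 2.56 CPM with IL-1β, 5.68, 5.02, 6.53 and 6.41 CPM with butyrate and 9.58, 8.02, 9.72 and 9.15 CPM with both. The 8 libraries with butyrate were all above the 8 without it, 2.24-fold without IL-1β (1.16 ± 0.18, adjusted p = 2.7e-05) and 2.70-fold with it (1.43 ± 0.16, adjusted p = 6.1e-07). IL-1β alone gave 0.36 ± 0.19 (adjusted p = 0.19). The rise of the combination over butyrate (0.63 ± 0.15, adjusted p = 0.0036) was lost without butyrate replicate 1 (0.013) or 2 (0.019) or replicate 1 (0.013), 3 (0.015) or 4 (0.011) of the combination.

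Of the 4 inhibitors, Timp1 and Timp4 were raised by IL-1β with and without butyrate. Timp1, a secreted inhibitor known as an inflammatory response gene, had 0.653, 0.208, 0.334 and 0.428 CPM in control and 0.552, 0.311, 0.418 and 0.387 CPM with butyrate. It had 1.19, 0.925, 1.14 and 1.62 CPM with IL-1β and 1.46, 1.15, 1.18 and 0.963 CPM with both. In counts the control libraries held 5 to 14 and the IL-1β libraries 19 to 45. The 8 libraries with IL-1β lay above the 8 without, 3.05-fold for IL-1β alone (1.61 ± 0.30, adjusted p = 0.00013) and 2.86-fold in the presence of butyrate (1.52 ± 0.30, adjusted p = 0.00033). Butyrate made no called difference with IL-1β (-0.05 ± 0.25, adjusted p = 0.90).

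Timp4 had 1.82, 1.67, 1.72 and 1.63 CPM in control, 2.59, 2.43, 3.01 and 2.63 CPM with IL-1β, 1.86, 1.64, 1.41 and 1.98 CPM with butyrate and 3, 2.76, 2.5 and 3.85 CPM with both. All libraries with IL-1β were above all without, by 0.64 ± 0.16 against control (adjusted p = 0.0041) and 0.80 ± 0.16 for the combination against butyrate (adjusted p = 0.00044). The first of these calls was lost without control replicate 2 (adjusted p = 0.013), 3 (0.011) or 4 (0.014) or IL-1β replicate 3 (0.015). Timp4 lies inside the synapsin gene Syn2 on the opposite strand, as Timp1 does in Syn1 and Timp3 in Syn3. Syn2 had a mean of 49.2 CPM in control, 102 CPM with IL-1β, 37.1 CPM with butyrate and 84.9 CPM with both, and its part in the Timp4 counts was not tested.

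Timp2, the most abundant inhibitor and one that also takes part in the activation of Mmp2 by Mmp14, had 15.3, 15.6, 15.7 and 15.5 CPM in control and 14, 12.3, 12.7 and 11.7 CPM with butyrate. IL-1β libraries had 14.1, 17.5, 18.4 and 20.3 CPM and libraries with both 17.1, 17.4, 20.5 and 23.9 CPM. The 4 control libraries were very close and the butyrate libraries all lay under them, a difference of -0.29 ± 0.11 that was not called (adjusted p = 0.044). Both agents against butyrate gave 0.63 ± 0.10 (adjusted p = 6.6e-05). Both agents against control gave 0.34 ± 0.10 (adjusted p = 0.0083), a call that did not hold in 11 of 24 alternatives. Adjusted p was 0.018 to 0.021 without any 1 control library, 0.030 without replicate 3 and 0.048 without replicate 4 of the combination. Leaving out IL-1β replicate 2 or 3 (both 0.013) or butyrate replicate 2 (0.011) or 3 (0.012) also lost it, as did upper-quartile scaling (0.011).

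Timp3, which is bound to the matrix and also blocks Adam17, was not called in any comparison. It had 0.653, 0.834, 0.812 and 2.74 CPM in control, 0.362, 0.584, 0.518 and 1.12 CPM with IL-1β, 1.21, 0.711, 1.88 and 1.63 CPM with butyrate and 1.14, 0.721, 1.53 and 1.35 CPM with both. Control replicate 4 stood apart from the other 3 control libraries, the ranges overlapped throughout, and the largest difference was -0.91 ± 0.49 for IL-1β (adjusted p = 0.20). Syn3 on the opposite strand overlaps 21.3% of the Timp3 exons.

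**Figure D4:**
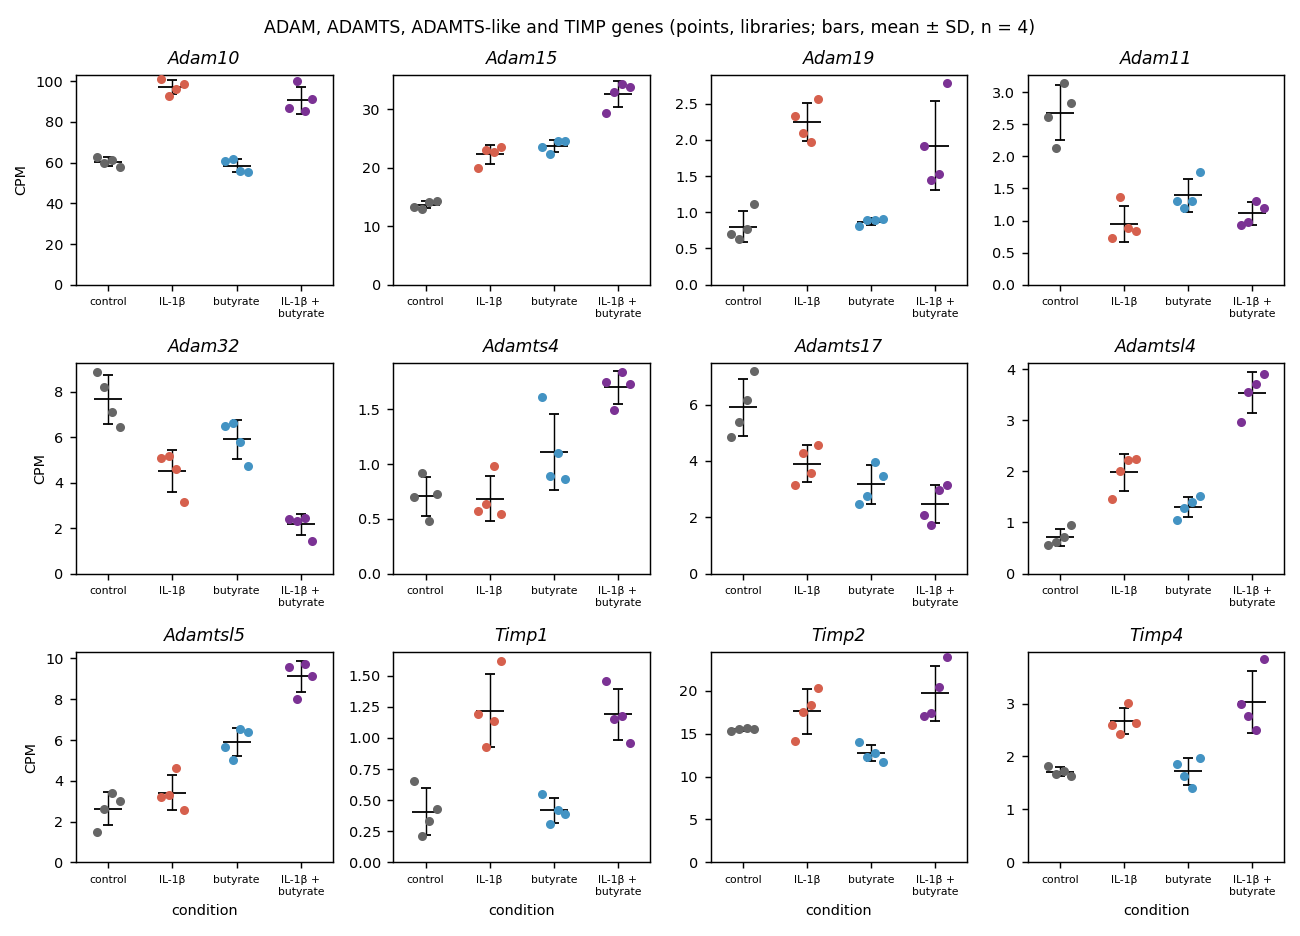
CPM of 12 ADAM, ADAMTS, ADAMTS-like and TIMP genes by condition, with a point for each library and the mean ± SD (n = 4) in black; every axis starts at 0. Adam10, Adam19, Timp1 and Timp4 are high in the 8 libraries with IL-1β, Adamtsl5 in the 8 libraries with butyrate, and Adam15 and Adamtsl4 are highest in the 4 libraries with both.

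The 5 genes whose log2 CPM followed Timp1 most closely over the 16 libraries were Peli3 (Pearson r = 0.966), Zbtb39 (0.965), Alpk1 (0.947), Dzip1l (0.943) and Alk (0.942). The points share the 4 conditions and their libraries, and the values are a description without a test.

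The difference in the presence of IL-1β between butyrate and no butyrate was set beside that in its absence, which rests on other libraries. Over the 48 members the 2 log2 fold changes had the same sign for 34, with r = 0.737 and a Spearman's rho of 0.640, and r was 0.737 over all 18587 genes as well. Genes are not independent replicates, and no test is given. The IL-1β differences without and with butyrate had the same sign for 36 members (r = 0.793, rho = 0.783), against r = 0.846 over all genes. The interaction, the test of whether the butyrate difference depends on IL-1β, called no member with edgeR or with DESeq2, and 7 of 48 members had an unadjusted p under 0.05. Over all genes it called 0.0430% as higher and 0.0538% as lower. The largest interaction terms were 1.15 ± 0.31 for Adam11 (adjusted p = 0.14) and -1.11 ± 0.35 for Mmp23 (adjusted p = 0.30). For Mmp14 the term was -0.81 ± 0.26 (adjusted p = 0.32).

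**Figure D5:**
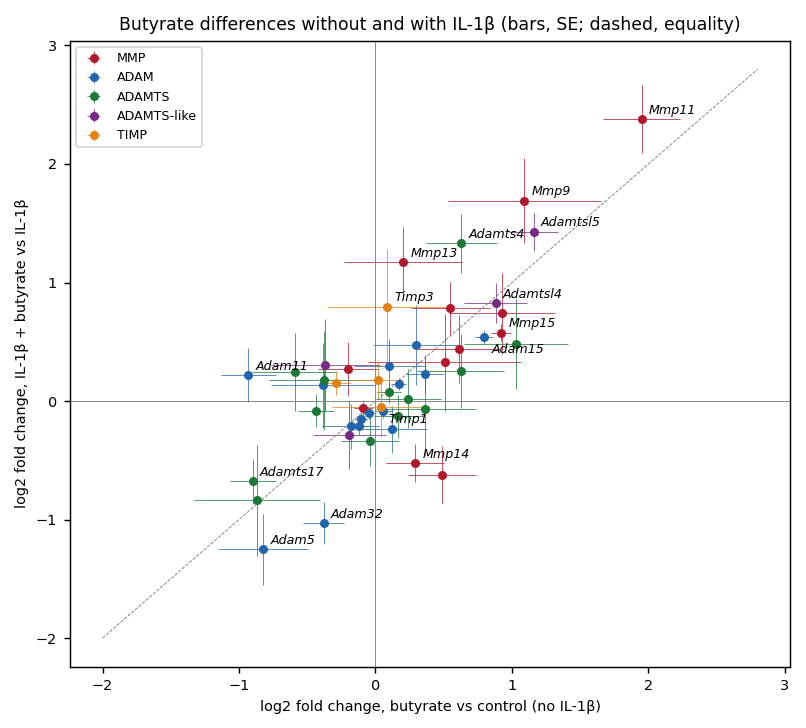
Log2 fold change by butyrate without (x axis) and with IL-1β (y axis) for the 48 tested members, with SE bars, the family as colour and a dashed line of equal values. Mmp11 and Adamtsl5 lie at the upper right in both settings, at 1.95 and 2.38 and at 1.16 and 1.43, whereas Adam11 was called lowered on the x axis and was not called on the y axis.

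Of the 20 tested members without a call, 10 were ADAMTS genes, 4 MMPs, 3 ADAMs, 2 ADAMTS-like genes and Timp3. They include the procollagen proteases Adamts2 and Adamts3, the aggrecanase Adamts5 and Adamts1 and Adamts9, which cut versican. Mmp23 came nearest, with 0.695 ± 0.169 CPM in control and 1.2 ± 0.171 CPM with IL-1β (0.78 ± 0.24, adjusted p = 0.018). Mmp24, whose 4 condition means lay between 15.3 and 18.6 CPM, had a log2 fold change of 0.19 ± 0.07 with IL-1β (adjusted p = 0.041). Adamts3 had 0.272 ± 0.155 CPM in control and 0.557 ± 0.087 CPM with butyrate (1.03 ± 0.38, adjusted p = 0.041). Adam8, a sheddase of leukocytes, had 3.19 ± 0.59 CPM in control and 4.02 ± 1.36 CPM with IL-1β (adjusted p = 0.22).

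Genes that activate, inhibit or traffic these proteases, and partner proteases, were described from a list of 42, of which 35 were tested. IL-1β raised 18 and lowered 1 (median log2 fold change 0.30), butyrate raised 9 and lowered 5, and butyrate added to IL-1β raised 9 and lowered 4. The shares of all genes tested were 11.2% raised and 6.59% lowered for IL-1β. They were 8.53% and 11.4% for butyrate, and 8.41% and 11.1% for butyrate added to IL-1β. The inactive rhomboid genes Rhbdf1 and Rhbdf2, whose products carry Adam17 to the cell surface, were both raised by IL-1β, by 0.52 ± 0.11 and 1.48 ± 0.09 on the log2 scale (SE). Rhbdf2 had a mean of 4.84 CPM in control, 13.4 CPM with IL-1β, 6.06 CPM with butyrate and 19.6 CPM with both, and Rhbdf1 had 4.34, 6.19, 8.50 and 13.1 CPM in the same order. Furin, which activates membrane-type MMPs, ADAMs and Mmp11, was raised by 0.30 ± 0.04 with IL-1β. The plasminogen activators Plau and Plat and the urokinase receptor Plaur were raised by IL-1β by 1.29 ± 0.23, 1.16 ± 0.20 and 1.34 ± 0.22.

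Inhibitors outside the TIMP family went different ways. Reck, a membrane-bound inhibitor of MMPs and Adam10, was raised by butyrate by 0.69 ± 0.12 and, with IL-1β present, by 0.72 ± 0.12, with means of 6.44 CPM in control, 5.81 CPM with IL-1β, 10.4 CPM with butyrate and 9.54 CPM with both. Tfpi2, a secreted inhibitor of plasmin, was raised by IL-1β by 1.16 ± 0.25 and lowered by butyrate by 1.77 ± 0.34 without and 2.05 ± 0.27 with the cytokine. Cst3, the cathepsin inhibitor cystatin C, was raised by IL-1β from 328 to 488 CPM and was at 385 CPM with both. Ctss, a cathepsin of antigen-presenting cells, had means of 3.62, 22.7, 2.04 and 10.4 CPM in control, IL-1β, butyrate and both, the same order as the summed macrophage markers, whose part in it was not tested.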

How the data were processed

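RNA was sequenced from 16 islet libraries, 4 for each of 4 conditions, as single-end reads. The authors mapped them with STAR 2.5.3a to GRCm38 and deposited whole-number counts per gene without normalization. The strand setting and annotation release are not given in the sources used here. Symbols, positions and exon overlaps came from GENCODE M21, and promoters from RefSeq (GRCm38.p6).

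In R 4.3.3, edgeR 4.0.16 filtered low counts (filterByExpr), scaled by TMM and fitted 1 robust quasi-likelihood model by condition to all 16 libraries, with Benjamini-Hochberg adjustment over 18587 genes and calls at 0.01, the threshold of the study. CPM used the scaled library sizes, and replicate numbers were not used as a block. The tests measure the spread between libraries, here independent experiments, while counting error dominates below about 10 counts. Pairs of replicates had a chi-square per gene of 1.72 or more, so no library was counted as a copy. Scripts were tested on simulated data.

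Per library values are given for the TIMPs and, in each comparison, for up to 8 called members with the largest fold change and a mean log2 CPM of at least 0. Other called members are given by ranges or means, except that Mmp9 and Adam10, and Mmp2 in a plot, were added library by library after their values were seen. The gene families, the lists of regulators and markers and this rule were chosen with earlier results of these data known. Alternatives were DESeq2 1.42.0, upper-quartile or no scaling, other filters, a threshold of 0.05, the compared conditions alone, a replicate block and leaving out each library.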

Additional observations from a re-analysis of the deposited data

Results flagged for a closer look

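In 4 groups a single library stood apart from the other 3 by Dixon's criterion. They were Adam19 with butyrate, where replicate 1 had 0.804 CPM against 0.888 to 0.903 CPM, and Adam1a with IL-1β, where replicate 1 had 2.74 CPM against 1.95 to 2.00 CPM. The others were Adam32 with IL-1β + butyrate, where replicate 4 had 1.44 CPM against 2.33 to 2.45 CPM, and Timp3 in control, where replicate 4 had 2.74 CPM against 0.653 to 0.834 CPM. Among the 76 groups examined, 19 genes in 4 conditions, chance would flag about 3.8.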

How the results depend on the processing

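The members called, 16 for IL-1β, 12 for butyrate added to IL-1β, 7 for butyrate, 25 for both agents against control and 19 against butyrate, stayed within 1.5 times under every alternative run, except that a threshold of 0.05 called 11 members for butyrate. Leaving out 1 library gave 14 to 18, 9 to 12, 6 to 8, 21 to 25 and 17 to 19 in the same order, and 0 to 0 for the interaction. Without a filter on low counts butyrate raised 5 and lowered 5 members in place of 5 and 2. Of 79 calls of single members, 65 held in all 24 alternatives, 14 were lost in at least 1 and 0 changed direction. The 79 are the calls of the main fit, and calls gained only under an alternative are not among them. The deviations of the 24 same-numbered pairs of libraries all correlated positively (0.053 to 0.40), and 17 passed 0.1. Column names number the libraries replicate by replicate, but the sample labels do not state whether a number marks a shared experiment. The fit without a block had been set as the main one. As a hint of shared experiments, 10 of 16 libraries were closest to their own number throughout. A fit with a replicate block called 19, 14, 9, 26 and 20 members, and 0 for the interaction. These are more calls in each of the 5 comparisons. A member described as not called is therefore one not called without the block. In control islets 24 of 50 members were under 1 CPM, where counting error weighs most. The cause of lost calls was not tested.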
